A study of Mus musculus with 4 samples.

Results

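The Frizzled receptors were followed as a family of 10 genes, Fzd1 to Fzd10, in whole mouse kidneys at E14.5 with and without Wnt4. Members were chosen by name, and each was read at every probe set that the platform's probe-to-gene table assigned to it and to no other gene. That rule gave 26 probe sets for the 10 genes, of the 34958 probe sets on the array that were paired with a single gene. Of the 26, 23 passed a filter on low signal and were tested, so that each of the 10 genes had at least 1 tested probe set.

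The Wnt4 mutant group held 2 arrays of null mutant kidneys (allele given as Wnt4tm1Amc), each of a pool of 12 kidneys, with the strain field reading 129. The wild-type group held 2 arrays, each of a pool of 2 kidneys, with the strain field reading CD-1. All kidneys were taken as whole organs at E14.5, Theiler stage 22, and the sex was not known. The protocol text, identical for all 4 arrays, speaks of CD-1 matings only, so the background of the mutants is not settled by the labels. Genotype, pool size and any true strain difference changed together, so their effects cannot be told apart. No label says if the pools sharing a genotype were drawn from different litters, and p-values reflect only how far these pools differ. The number of arrays limits the precision.

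Frizzled proteins are multi-pass membrane receptors that bind Wnt ligands through an extracellular cysteine-rich domain. With the co-receptors Lrp5 or Lrp6 they recruit Dishevelled and stabilise beta-catenin, and with other partners they signal to the cytoskeleton and orient cells in a plane. In the developing kidney Wnt9b from the ureteric bud and Wnt4 in the induced mesenchyme act in turn to convert mesenchyme into the epithelium of the nephron, and Wnt4 mutants fail to form its earliest structure, the renal vesicle. By sequence the family falls into 4 branches: Fzd1, Fzd2 and Fzd7; Fzd3 and Fzd6; Fzd4, Fzd9 and Fzd10; and Fzd5 and Fzd8.

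Promoters are shown for Fzd1 and Fzd7, which were higher in the mutant, and for Fzd4 and Fzd5, which were lower, because the members of each pair moved together. Each window, from RefSeq on GRCm38.p6, runs from 250 bases before to 50 bases after an annotated start, 5′ to 3′. Windows of 6 of the 10 genes were read, and those of Fzd2, Fzd3, Fzd6 and Fzd8 were not. Capitals mark matches on either strand to the TCF core, searched as CTTTGA or CTTTGT, and to the CCAAT box, searched as CCAAT.
Fzd1 promoter, chr5:4758167-4758466, minus strand: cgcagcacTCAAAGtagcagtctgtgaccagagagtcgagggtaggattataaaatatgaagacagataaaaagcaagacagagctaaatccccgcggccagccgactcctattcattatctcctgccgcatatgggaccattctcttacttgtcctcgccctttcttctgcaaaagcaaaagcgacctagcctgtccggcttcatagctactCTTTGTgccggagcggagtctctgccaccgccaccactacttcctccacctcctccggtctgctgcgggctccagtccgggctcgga
Fzd7 promoter, chr1:59481897-59482196, plus strand: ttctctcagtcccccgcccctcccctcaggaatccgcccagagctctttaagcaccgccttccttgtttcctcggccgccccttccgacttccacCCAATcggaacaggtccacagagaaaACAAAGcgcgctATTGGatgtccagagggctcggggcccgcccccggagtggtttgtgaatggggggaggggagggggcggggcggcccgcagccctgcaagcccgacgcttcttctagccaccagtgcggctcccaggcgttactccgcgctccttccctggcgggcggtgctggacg
Fzd4 promoter, chr7:89404116-89404415, plus strand: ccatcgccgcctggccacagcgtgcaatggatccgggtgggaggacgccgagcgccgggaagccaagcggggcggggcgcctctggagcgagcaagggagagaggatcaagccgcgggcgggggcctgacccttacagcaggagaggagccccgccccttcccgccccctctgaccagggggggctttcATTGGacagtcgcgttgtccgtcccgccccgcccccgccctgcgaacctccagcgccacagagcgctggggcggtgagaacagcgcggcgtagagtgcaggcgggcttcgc
Fzd5 promoter, chr1:64737701-64738000, minus strand: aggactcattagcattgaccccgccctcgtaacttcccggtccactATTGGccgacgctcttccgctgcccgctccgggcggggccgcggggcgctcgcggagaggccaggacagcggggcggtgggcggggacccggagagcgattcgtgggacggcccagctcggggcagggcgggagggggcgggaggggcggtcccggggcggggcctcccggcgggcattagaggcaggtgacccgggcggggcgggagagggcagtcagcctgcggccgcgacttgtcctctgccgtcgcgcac

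The Fzd1 window held 2 matches to the TCF core and the Fzd7 window 1, while the Fzd4 and Fzd5 windows held 0, as did those of Fzd9 and Fzd10, genes that were not called. Over all 32851 RefSeq windows of this length, 31.2% held at least 1 such match. The CCAAT box was matched 2 times in the Fzd7 window, 1 time each in the Fzd4 and Fzd5 windows and 0 times in the Fzd1 window, and 37.4% of all windows held it. No match to one motif overlapped a match to the other. The GC box, searched as GGGCGG on either strand and left in lower case, was matched 7 times in the Fzd7 window, 8 times in the Fzd4 window, 10 times in the Fzd5 window and 0 times in the Fzd1 window, counting overlapping matches, against 35.7% of all windows with at least 1. The share of G and C was 54.0% in the Fzd1 window, 66.7% in Fzd7, 72.7% in Fzd4 and 75.7% in Fzd5, with a median of 52.7% over all windows. These matches describe letters only, and no binding was measured.

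Signals are the authors' deposited intensities on a linear scale. Differences are mutant minus wild-type on the log2(signal + 16) scale, each with its standard error (SE) or a 95% interval, and a probe set was called when its limma adjusted p was below 0.05. Levels of different probe sets were not compared, since probes differ in brightness. Summed signals of a marker list add the brightest probe set of each gene, tested or not, so bright probe sets weigh most in them. Wnt4 itself had signals of 406 and 272 on the mutant arrays, against 1885 and 1770 on the wild-type arrays, at the brighter of its 2 probe sets (log2 difference -2.40, limma adjusted p = 0.000196). Where its probes lie with respect to the mutation was not analysed here. Marker lists of renal vesicle, proximal tubule, podocyte, ureteric bud and stroma each had 6 or more genes above the signal filter. That filter uses the mean over all 4 arrays, so a gene can pass through a single genotype. Passing it does not show that a marker was detected in the mutant.

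The family changed in both directions. Of the 23 tested Frizzled probe sets, 7 were higher and 5 lower in the mutant and 11 were not called. The 12 called made up 52.2% of those tested, where over all 27022 tested probe sets 10.8% were called, 5.41% higher and 5.39% lower. The family was chosen with earlier results of these data known, so this comparison is not an independent test. Counted as genes by the brightest tested probe set, Fzd1, Fzd2 and Fzd7 were higher and Fzd4, Fzd5 and Fzd6 lower, while Fzd3, Fzd8, Fzd9 and Fzd10 were not called. Among all 13432 genes counted in this way, 6.70% were higher and 5.82% lower. The median log2 difference was -0.02 over the 10 Frizzled genes and 0.00 over all genes. Probe sets of 1 gene share a target and are not independent of one another. In whole kidneys, fewer cells of a type and less RNA per cell cannot be told apart.

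The 6 gene calls rested on a variance model in which the spread depends on intensity. Fitted in limma without that trend, 0 of the 10 Frizzled genes passed by the brightest probe set, with adjusted p = 0.0595 to 0.106 for the 6 genes and unadjusted p under 0.05 for 7 of the 10, and 3 dimmer probe sets passed, 1 each of Fzd4, Fzd6 and Fzd7. Of all 27022 probe sets in that fit, 5917 had a limma unadjusted p under 0.05 and 858 were called.

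**Figure D1:**
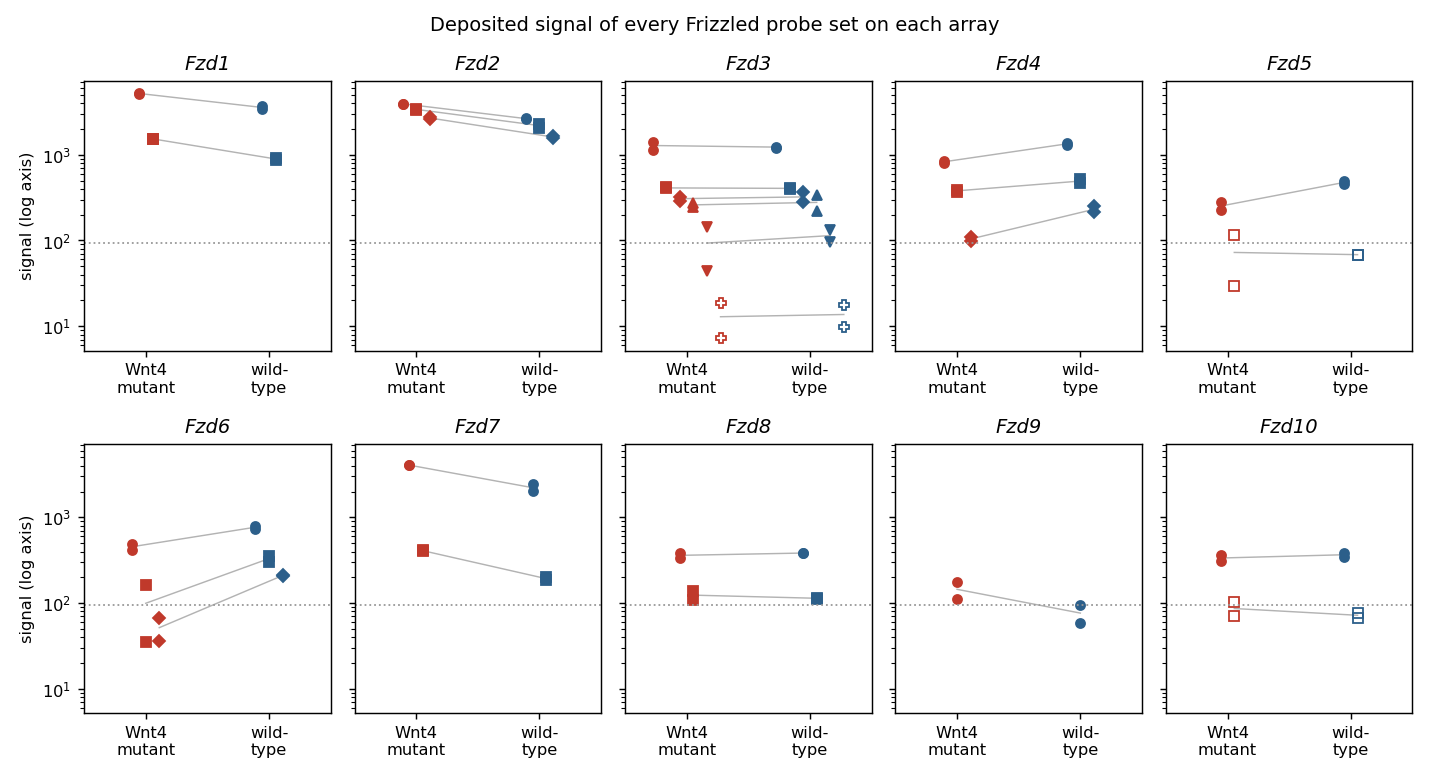
Deposited signal (log axis) of all 26 Frizzled probe sets, 1 panel per gene, with the 2 Wnt4 mutant arrays (red) left of the 2 wild-type arrays (blue); each symbol shape is 1 probe set, grey lines join the group means, open symbols were not tested and the dotted line marks a signal of 94.2, the lowest mean level tested. Every probe set of Fzd1, Fzd2 and Fzd7 slopes down towards wild-type, and every tested probe set of Fzd4, Fzd5 and Fzd6 slopes up.

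Fzd1, Fzd2 and Fzd7 form a branch of closely related receptors, and in mouse embryos Fzd2 acts redundantly with Fzd1 in closing the palate and with Fzd7 in elongating tissues. All 7 of their probe sets were called higher in the mutant. The signals of mutant and wild-type arrays did not overlap at any of the 7, and the differences ran from 0.54 to 1.02, that is 1.46-fold to 2.03-fold. Overlap was also absent at all 12 called Frizzled probe sets and at 54.1% of all tested probe sets.

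At the brightest probe set of Fzd7 (1450044_at) the signal was 4094 and 4039 on the mutant arrays, against 2013 and 2426 on the wild-type arrays. Both mutant arrays lay well above both wild-type arrays, a log2 difference of 0.88 ± 0.11 (SE), which is 1.83-fold higher (limma adjusted p = 0.00183). The dimmer probe set (1450043_at) read 401 and 416 in the mutant and 201 and 185 in wild-type. Its difference was 1.02 ± 0.18 (SE; 2.03-fold, limma adjusted p = 0.0110), which did not pass when mutant replicate 2 was left out (adjusted p = 0.0609). The difference at the brightest probe set stood at the 97.0th percentile of all tested probe sets.

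Fzd1 read 5201 and 5158 on the mutant arrays at its brightest probe set (1437284_at), against 3737 and 3369 on the wild-type arrays. The mutant arrays lay close together and above both wild-type arrays, with a mean of 5180 ± 30.4 against 3553 ± 261 (SD, n = 2 each) and a 1.46-fold higher level (limma adjusted p = 0.00642). Its second probe set (1422985_at) had 1528 and 1535 in the mutant and 921 and 862 in wild-type, a 1.71-fold higher level (limma adjusted p = 0.00297).

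Fzd2, a receptor that can take up Wnt5a together with Ror2, had 3 probe sets, and all 3 were called. The brightest (1418532_at) read 3899 and 3951 on the mutant arrays, against 2657 and 2613 on the wild-type arrays. The spread within each genotype was small beside the gap between them, and the difference was 0.57 ± 0.08 (SE), or 1.49-fold (limma adjusted p = 0.00385). The other two (1418533_s_at and 1418534_at) were 1.54-fold and 1.66-fold higher. The first of these carries the suffix that the array maker gives to probe sets able to match related transcripts.

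Markers of stroma moved in the same direction on the same arrays. Of 13 tested stromal genes 8 were higher and 0 lower, and the summed signal of the list was 77298 to 77450 on the mutant arrays, against 51369 to 54922 on the wild-type arrays. Skeletal muscle markers were also higher, 6 of 8 tested, with sums of 7670 to 8129 in the mutant and 1206 to 2120 in wild-type. Over all genes 6.70% were higher and 5.82% lower. Pdgfra, a growth factor receptor of stromal cells, was 2.80-fold and Actc1, a muscle actin, 6.21-fold higher. The lowest signal on any array was 1106 in the stromal list and 7.35 in the muscle list, the latter at an untested gene in wild-type. The part of these cells in the higher Fzd1, Fzd2 and Fzd7 signals was not tested.

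Fzd4, Fzd5 and Fzd6 come from 3 different branches. Of their 7 tested probe sets, 5 were called lower and the other two also had differences below 0, and at none of the 7 did the genotypes overlap. Over the whole family 15 of the 23 tested probe sets (65.2%) had no overlap, where 54.1% of all tested probe sets had none. Among the 5 called lower, the dimmest Fzd6 probe set passed the filter only through its wild-type signal. Neither Fzd6 1448662_at, at 35.3 in mutant replicate 2, nor Fzd9, at 58.4 in wild-type replicate 1, reached the filter level of 94.2 there. The counts without overlap include these probe sets, which were tested in part through the genotype where they were higher.

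Fzd4 is the receptor for Norrin, the ligand of retinal blood vessel growth, and also binds Wnts. Its brightest probe set (1434756_at) read 803 and 848 in the mutant and 1300 and 1377 in wild-type. Both mutant signals fell well below both wild-type signals, by -0.69 ± 0.11 on the log2 scale (SE; 1.61-fold lower, limma adjusted p = 0.00595). A dim probe set (1449416_at) had 98.6 and 110 in the mutant, against 212 and 251 in wild-type, 2.05-fold lower with a limma adjusted p of 0.0369. That call was lost when any 1 of the 4 arrays was left out: without mutant replicate 1 or 2 the adjusted p was 0.115 and 0.0735, and without wild-type replicate 1 or 2 it was 0.0526 and 0.124. It was also lost with no filter on signal (adjusted p = 0.0989). The remaining probe set (1419301_at) read 371 and 386 in the mutant and 472 and 515 in wild-type, without overlap, but did not pass (log2 difference -0.37, limma adjusted p = 0.173).

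Fzd5, which in mice is needed for the vessels of yolk sac and placenta and for the maturation of Paneth cells in the gut, was tested at 1 probe set (1455604_at). The signal was 227 and 278 on the mutant arrays, against 490 and 461 on the wild-type arrays. The mutant arrays were the lower ones without overlap, with a difference of -0.88 ± 0.18 (SE), or 1.84-fold lower (limma adjusted p = 0.0188). Without mutant replicate 1 the call was lost (adjusted p = 0.0896). A second probe set (1422937_at) was below the filter, with 29.3 and 116 in the mutant and 68.3 and 68.4 in wild-type. There the wild-type arrays lay between the mutant arrays, and averaging both probe sets gave Fzd5 a difference of -0.50 that was not called (limma adjusted p = 0.344).

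Fzd6, a receptor of planar polarity that orients hairs in mouse skin, had wide differences at its dimmer probe sets, and at its brightest a smaller one than Fzd5. Its brightest probe set (1417301_at) read 493 and 417 in the mutant and 736 and 802 in wild-type. The mutant signals were lower on both arrays, by -0.74 ± 0.14 on the log2 scale (SE; 1.67-fold lower, limma adjusted p = 0.0154), and the call was lost without mutant replicate 2 (adjusted p = 0.0892). At the dimmest (1458904_at) the signal was 67.4 and 36.2 in the mutant, against 205 and 214 in wild-type, a 3.42-fold lower level (limma adjusted p = 0.0146, and 0.0520 with no filter on signal, which ends the call). Both mutant signals lay below the filter level of 94.2, so 1458904_at was tested only through its wild-type signal. It fell below the filter when either wild-type array was left out. The third (1448662_at) read 164 and 35.3 in the mutant and 303 and 359 in wild-type. Here the mutant arrays differed several-fold from each other, and the log2 difference of -1.85 was not called (limma adjusted p = 0.0562). It was -0.94 without mutant replicate 2, and -2.75 without mutant replicate 1, where it passed (adjusted p = 0.000327). It also passed without wild-type replicate 1 (-1.96, adjusted p = 0.0275), with the replicate number as a block (adjusted p = 0.0211), after median centring (0.000297), with a pseudocount of 64 (0.0391) and, just at the threshold, without _x_at and _s_at probe sets, which makes 6 of 13 alternatives.

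Nephron markers were lower on the same mutant arrays. In the renal vesicle list 9 of 9 tested genes were lower, among them Wnt4, the mutated gene itself, and Dkk1 and Ccnd1, which are also counted as beta-catenin targets. Lower genes numbered 7 of 8 in the proximal tubule list, 5 of 6 among loop and distal tubule genes and 5 of 6 among podocyte genes. Summed podocyte signal was 4220 to 4568 in the mutant and 8728 to 9460 in wild-type, and summed proximal tubule signal was 863 to 1011 in the mutant and 6922 to 7330 in wild-type. Summed renal vesicle signal was 8059 to 8568 in the mutant, against 19015 to 19738 in wild-type, and summed loop and distal tubule signal 1312 to 1484, against 5385 to 6546. Of 10 endothelial genes 3 were lower and 0 higher, with sums of 8453 to 8945 in the mutant, against 10755 to 11049 in wild-type. Smooth muscle and pericyte genes were lower for 3 of 7 tested, and nephron progenitor genes went both ways, 3 of 10 lower and 2 higher. Over all genes 5.82% were lower and 6.70% higher. Of 13 ureteric bud genes 4 were lower and 2 higher, with sums of 17057 to 18152 in the mutant and 19644 to 21299 in wild-type. No marker was at 0 on any array, but signals of some nephron markers lay below the filter level of 94.2 on the mutant arrays. A signal above 0 does not show that a cell type was present. The part of these cells in the lower Fzd4, Fzd5 and Fzd6 signals was not tested.

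**Figure D2:**
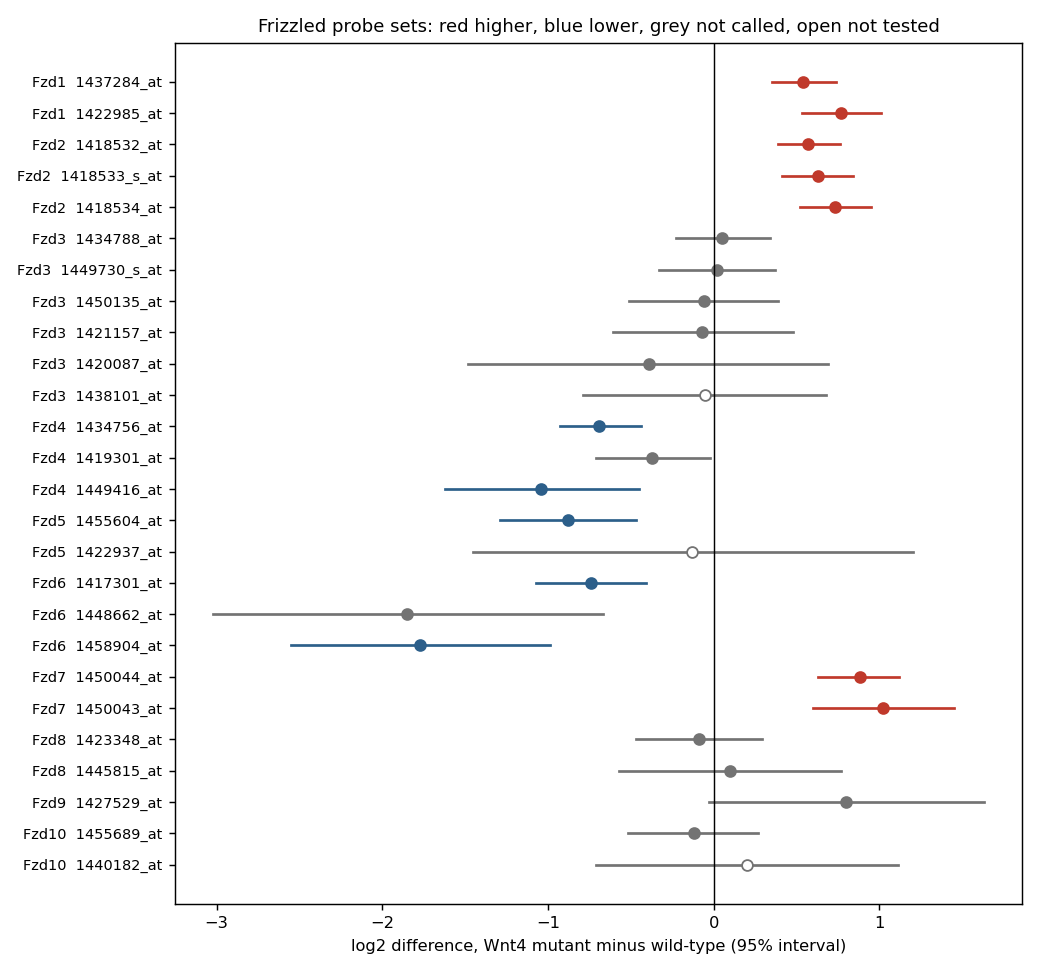
Log2 difference, Wnt4 mutant minus wild-type, with its 95% interval, for all 26 Frizzled probe sets from Fzd1 at the top to Fzd10 at the bottom; red was called higher, blue lower, grey was not called, and open points were not tested and come from the fit with no filter. Intervals of the 7 probe sets of Fzd1, Fzd2 and Fzd7 lie wholly above 0, and those of the 7 tested probe sets of Fzd4, Fzd5 and Fzd6 wholly below it.

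The remaining 4 genes were not called, and the data bound their change to different degrees. Fzd3, which guides axon tracts and shares the role of Fzd6 in neural tube closure, had 6 probe sets. The brightest (1434788_at) read 1141 and 1418 in the mutant and 1243 and 1209 in wild-type. The wild-type arrays lay between the mutant arrays, and the difference was 0.05 with a 95% interval of -0.23 to 0.34 (limma adjusted p = 0.841). The next (1449730_s_at) had 404 and 417 in the mutant and 414 and 396 in wild-type, a difference of 0.02. Another (1450135_at) had 292 and 321 in the mutant and 363 and 282 in wild-type, a difference of -0.06. The genotypes overlapped at both, as they did at the 2 dimmer ones. Of these, 1421157_at read 245 and 275 in the mutant and 335 and 221 in wild-type (-0.07), and 1420087_at read 44.6 and 142 in the mutant and 133 and 94.9 in wild-type (-0.39). The probe set left untested (1438101_at) had signals of 18.6 and 7.20 in the mutant and 17.6 and 9.77 in wild-type.

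Fzd8, the nearest relative of Fzd5, read 388 and 334 in the mutant at its brighter probe set (1423348_at), against 385 and 383 in wild-type. The arrays overlapped, and the difference of -0.09 had a 95% interval of -0.47 to 0.29 (limma adjusted p = 0.791). Its dimmer probe set (1445815_at) had 139 and 109 in the mutant and 112 and 116 in wild-type, a difference of 0.10 (interval -0.57 to 0.77). Whether Fzd8 differed from Fzd5 in its response was not tested.

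Fzd10, of the same branch as Fzd4, read 311 and 360 in the mutant and 383 and 350 in wild-type at its tested probe set (1455689_at). The genotypes overlapped (log2 difference -0.12, interval -0.52 to 0.27, limma adjusted p = 0.721). Its untested probe set (1440182_at) had 70.7 and 103 in the mutant, against 67.0 and 77.4 in wild-type. Fzd9, a gene of the region deleted in human Williams syndrome, had a single probe set (1427529_at) near the filter, with 113 and 178 in the mutant and 58.4 and 94.8 in wild-type. Both mutant arrays lay above both wild-type arrays, yet the difference of 0.80 had an interval of -0.03 to 1.63 and did not pass (limma adjusted p = 0.211). Its interval holds both no change and the 1.83-fold rise of Fzd7.

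**Figure D3:**
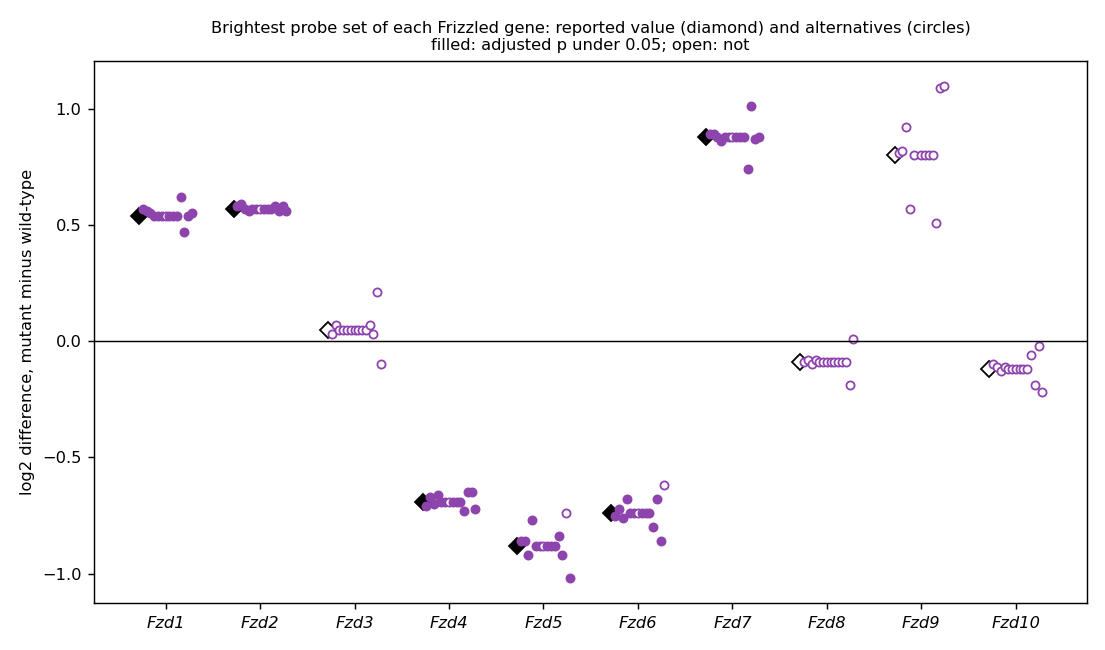
Log2 difference, mutant minus wild-type, of the brightest tested probe set of each Frizzled gene as reported (black diamond) and under the 14 alternatives fitted by probe set (purple circles, in a fixed order from left to right; 12 of them for Fzd9); filled symbols have an adjusted p under 0.05. Fzd1, Fzd2 and Fzd7 stay above 0 and Fzd4, Fzd5 and Fzd6 below 0 throughout, while Fzd3 and Fzd8 each change sign under 1 alternative.

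The partners of the Frizzleds were read from 9 lists with 82 genes on the array, of which 71 were tested. Of these, 13 were higher and 5 lower in the mutant and 53 were not called, with a median log2 difference of 0.16, against 0.00 over all genes. Over all genes 6.70% were higher and 5.82% lower, so the count of lower genes, and a list with 1 called gene of 8 or 9, lie near the background.

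Among co-receptors and other Wnt receptors 2 of 7 tested genes were higher and 0 lower, with a list median of 0.30. Ror2, a receptor tyrosine kinase that binds Wnt5a with Frizzled partners, read 635 and 587 in the mutant and 310 and 348 in wild-type. Neither genotype reached the other, and the level was 1.82-fold higher (limma adjusted p = 0.0104), which did not hold once mutant replicate 1 was left out (adjusted p = 0.0663). Its relative Ror1 was 1.42-fold higher (limma adjusted p = 0.0299). That call was lost when mutant replicate 1 or 2 was left out (log2 differences 0.58 and 0.44). It was also lost with median centring (limma adjusted p = 0.0610) or with no filter (0.0509), and its 2 further probe sets were not called higher. Lrp6 had a difference of 0.30 and Lrp5 one of -0.11, and neither passed.

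The levels of Frizzled at the cell surface are set in part by the ubiquitin ligases Znrf3 and Rnf43, which R-spondins hold back together with Lgr receptors. Of 8 tested genes of this system, 1 was higher and 0 lower, with a list median of -0.05. That gene was Rspo3, which encodes an R-spondin, with 1545 and 1356 in the mutant, against 375 and 354 in wild-type. Both mutant arrays lay far above both wild-type arrays, 3.85-fold higher (log2 difference 1.94 ± 0.13, SE, limma adjusted p = 0.000102). Znrf3 had a difference of -0.17 and Rnf43 one of 0.73, and neither passed.

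Norrin and the tetraspanin Tspan12 act with Fzd4. Ndp, the Norrin gene, read 253 and 257 in the mutant and 109 and 93.1 in wild-type. It was thus higher where Fzd4 was lower, by 2.32-fold (limma adjusted p = 0.0181), though the call was lost without mutant replicate 1 or 2 (adjusted p = 0.0710 and 0.0752) and with no filter (0.0583). Tspan12 had 595 and 539 in the mutant and 393 and 472 in wild-type, without overlap, and did not pass (limma adjusted p = 0.170).

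Of 9 tested genes of Dishevelled and the destruction complex, which holds beta-catenin in check, 0 were called by limma, and 2 had an unadjusted p under 0.05. Those were Btrc, at -0.32, and Axin1, at 0.31, which also bounded the list, and Ctnnb1, the beta-catenin gene, had a difference of 0.04. Of all 27022 tested probe sets, 6947 had a limma unadjusted p under 0.05.

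Genes of the planar polarity list went both ways, with 3 of 11 tested genes higher, 2 lower and a list median of 0.24. Fat4, a giant cadherin of the stroma that signals with Dchs1, read 2929 and 2949 in the mutant and 646 and 959 in wild-type. That was 3.68-fold higher (limma adjusted p = 0.000418), and its further probe set was also called. Prickle1, a cytoplasmic polarity protein, was 1.76-fold higher, with 1526 and 1499 in the mutant, against 861 and 847 in wild-type (limma adjusted p = 0.00219). Its further probe set was not called higher. Prickle2 was 1.37-fold higher (limma adjusted p = 0.0467), a call lost without wild-type replicate 2 and without mutant replicate 1 or 2 (adjusted p = 0.0767, 0.193 and 0.213), with the replicate number as a block (0.0560), and under quantile normalization (0.0556), median centring (0.112) and no filter (0.0692). The polarity cadherins Celsr1 and Celsr2 were lower, as was Fzd6, by 2.10-fold and 1.61-fold. Celsr1 read 391 and 304 in the mutant and 840 and 654 in wild-type (limma adjusted p = 0.00934). The call of Celsr2 was lost without mutant replicate 1 or 2 (adjusted p = 0.0732 and 0.0507).

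Of the Wnt ligands, 12 of 19 genes were tested, and besides Wnt4 the only one called was Wnt6, with 527 and 516 in the mutant and 160 and 235 in wild-type. It was 2.55-fold higher (limma adjusted p = 0.00615), and its further probe set was not called higher. Wnt5a, a ligand of Fzd2 and Ror2, had 739 and 712 in the mutant, against 547 and 629 in wild-type, and did not pass (limma adjusted p = 0.205). Among the secreted proteins that share the cysteine-rich domain of the Frizzleds, 2 of 5 were higher and 0 lower. These were Sfrp4 (1.61-fold, limma adjusted p = 0.0205) and Sfrp1 (1.35-fold, limma adjusted p = 0.0305). Without mutant replicate 1 or 2 the adjusted p was 0.108 and 0.0828 for Sfrp4 and 0.139 and 0.137 for Sfrp1, so both calls were lost. That of Sfrp1 was also lost with median centring (adjusted p = 0.103) and with no filter (0.0602).

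Among 8 tested targets of beta-catenin 2 were lower, Dkk1 and Ccnd1, and 2 higher, Axin2 and Apcdd1. Dkk1, a secreted inhibitor of Lrp5 and Lrp6, had 253 and 233 in the mutant and 1230 and 1225 in wild-type (4.80-fold lower). Axin2, a feedback component of the destruction complex, had 874 and 880 in the mutant and 618 and 470 in wild-type. Its 1.61-fold higher level (limma adjusted p = 0.0272) was no longer called with mutant replicate 1 or 2 removed (adjusted p = 0.0908 and 0.101), nor was that of Apcdd1 (1.41-fold; adjusted p = 0.0564 and 0.124). Axin2 was also lost with no filter (adjusted p = 0.0563) and Apcdd1 with median centring (0.0539). The further tested probe set of Axin2 was not called higher, while all 4 further ones of Apcdd1 were. Ccnd1, a cyclin of the G1 phase, was 1.39-fold lower, and with mutant replicate 2 removed or arrays centred on their medians it was not called (adjusted p = 0.0927 and 0.0658). Fitted without the intensity trend, Ror1, Ror2, Celsr1, Celsr2, Prickle2, Wnt6, Sfrp1, Sfrp4, Ccnd1, Apcdd1 and Axin2 were not called. In the calcium branch 1 of 9 tested genes was called. Nfatc4, a transcription factor activated through calcineurin, read 1871 and 1960 in the mutant and 893 and 1030 in wild-type. That was 1.98-fold higher (limma adjusted p = 0.00123), with 2 further probe sets that were not called higher. The called probe set carries the _s_at suffix, and without _x_at and _s_at probe sets Nfatc4 was not called.

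**Figure D4:**
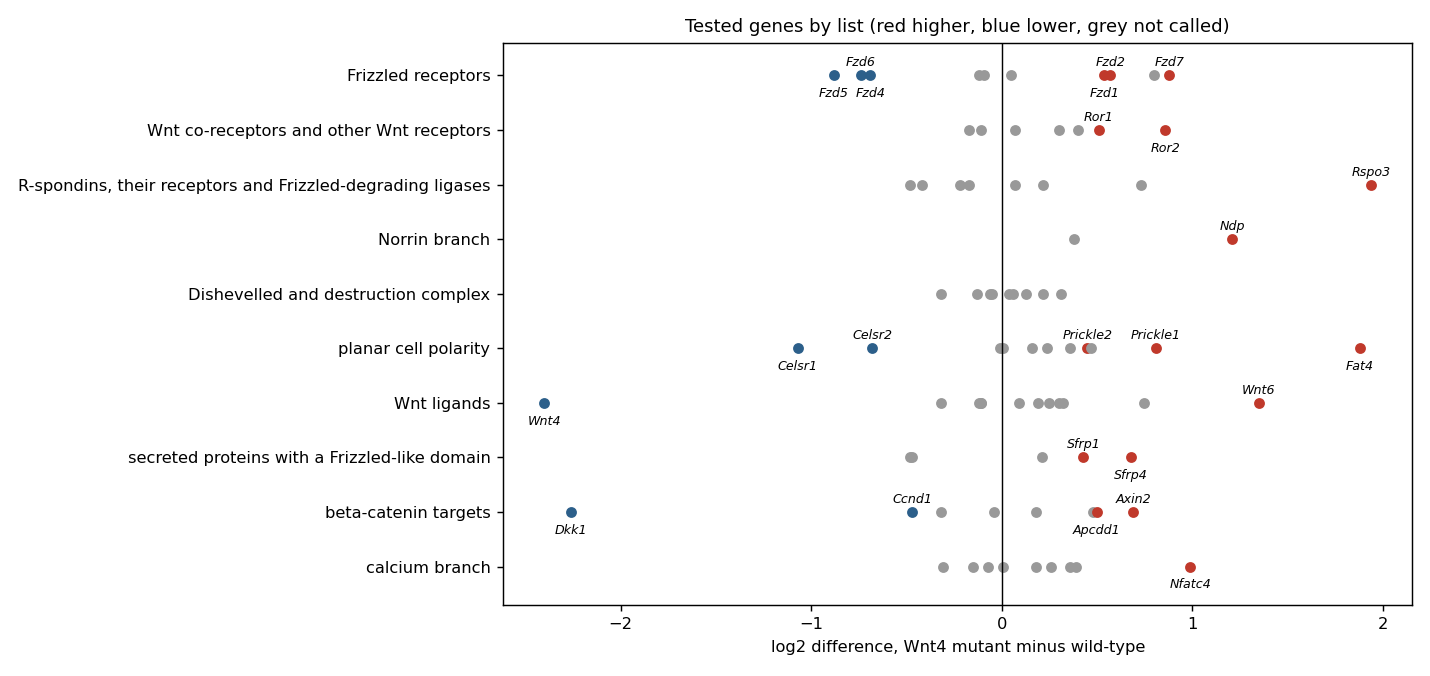
Log2 difference, Wnt4 mutant minus wild-type, of each tested gene by its brightest probe set, for the 10 Frizzled genes (top row) and 9 lists of genes that act with them; red was called higher, blue lower, grey not called, and called genes are named. The called genes of the Frizzled row split into 3 from 0.54 to 0.88 and 3 from -0.88 to -0.69, and Fzd9, at 0.80, was not called. The row of Dishevelled and the destruction complex holds no called gene and stays between -0.32 and 0.31.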

How the data were processed

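Expression was measured on 4 Mouse430_2 arrays. The values are the authors' deposited signal intensities, linear in scale, with a value for every probe set on each array, and the labels name GCOS as the software, per the submitters' processing notes, with no version. The summary algorithm is not given in the sources used here. The mean after trimming 2% at each end was 500 on each array. Median signals were 138 and 159 on the mutant and 151 and 149 on the wild-type arrays.

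Signals were turned to log2(signal + 16) with no further normalization. The 64 control probe sets and the lowest 40% by mean were left out, which left 27022 of 45101, with a lowest mean signal of 94.2. A 2-group model was fitted with limma 3.58.1 in R 4.3.3 (eBayes with an intensity trend, two-sided, Benjamini-Hochberg over all tested probe sets), and the step was tested on simulated data. The added 16 understates changes of dim probe sets. Gene names came from the platform table, matched to RefSeq by identifier for 34754 probe sets and kept as listed for 204. A gene was represented by its brightest tested probe set. All Frizzled probe sets were named, with up to 6 called genes of each pathway list by p, and up to 2 genes of each marker list by p. The exception is the renal vesicle list, where Wnt4, Dkk1 and Ccnd1 were named as genes also held by a pathway list, not by p. Genes named that did not pass were chosen after their values were seen, apart from Tspan12. The members and lists were chosen with earlier results of these data known. Macrophage genes (0 of 6 called, 0 at an unadjusted p under 0.05), smooth muscle and pericyte genes (3 of 7 lower), neural and Schwann cell genes (1 of 4 lower), adrenal and gonad genes (1 of 3 lower), erythroid genes (2 of 4 higher) and nephron progenitor genes (3 of 10 lower, 2 higher) were also counted. The deviations of same-numbered arrays had a correlation of -0.0171 across probe sets, so replicate numbers were not taken as pairs.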

Additional observations from a re-analysis of the deposited data

How the results depend on the processing

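Quantile normalization, pseudocounts of 1 and 64, centring on array medians, a robust fit, no filter, a filter on the lowest 60% and dropping those whose suffix is _x_at or _s_at each gave the same 3 higher and 3 lower Frizzled genes. The call counts over probe sets were 10 to 13 in these fits, against 12 as reported. With the replicate number as a block, 13 Frizzled probe sets and the same 6 genes were called, and over all probe sets 2913, against 2920. Without the intensity trend 858 probe sets were called in all, 3 of them Frizzled, and 0 Frizzled genes by the brightest probe set; all 12 reported calls kept their sign, and the cause was not tested. When 1 array was left out, 1572 to 4008 probe sets were called in all, with the low counts of 1611 and 1572 without mutant replicate 1 and 2, where the lone mutant array is assumed to vary like the wild-type pair. Then 9 to 11 Frizzled probe sets and 5 to 6 Frizzled genes were called, Fzd5 being lost without mutant replicate 1 and Fzd6 without mutant replicate 2. Fits without a wild-type array assume in turn that the lone wild-type array varies like the mutant pair, so their higher counts are not stronger evidence. Averaging a gene's probe sets called 5 of 9 tested Frizzled genes, without Fzd5. In none of the alternatives in which it was fitted did a called Frizzled probe set change sign. Signal near the filter limits what can be said of Fzd9 and of the untested probe sets of Fzd3, Fzd5 and Fzd10.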
